A study of Tachysurus fulvidraco x Tachysurus vachelli with 9 samples.

Results

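The genes described here build the seal between intestinal epithelial cells and the mucus that covers them. They are the 120 loci, of 26163 in the expression table, whose product was named as a claudin, occludin, tight junction protein, junctional adhesion molecule, cingulin, tricellulin, cadherin-1, desmoplakin, desmoglein, desmocollin, plakophilin or mucin. They were matched by product name. The posterior intestine of hybrid yellow catfish (*Tachysurus fulvidraco* x *Tachysurus vachelli*) was sequenced in 3 groups of 3 fish. Rec fish had 96 h of recovery after 16 h of simulated transport, Str fish were sampled at 16 h of transport, and Ctrl fish, labelled untreated, were the 0 h group of the transport series. Food was withheld before the transport experiment, and feeding during recovery is not stated. The sequenced Ctrl fish were those of 0 h only, so sampling time differs between the groups and time without food may differ too. Neither can be told apart from transport or recovery here. Which transport bag a fish came from is not stated, so fish of a group may share a bag, and the p-values measure only the spread between these 9 fish. Their age is not stated either.

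Tight junctions close the space between neighbouring epithelial cells near their apical side. Claudins span the membrane and set how tight the seal is and which ions pass: in mammals, claudin 15 forms cation pores in the intestine, while claudins 1, 3 and 4 are mostly counted among the sealing ones. Occludin and the junctional adhesion molecules (JAMs) span the membrane beside them, the ZO proteins and cingulin tie them to the actin skeleton from inside, and cadherins and desmosomes hold the cells together below. Mucins are large glycosylated proteins that are either secreted as a gel by goblet cells or stay anchored in the apical membrane. Fish carry many more claudin genes than mammals, often in tandem arrays.

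By role, the members were 54 claudins, 2 claudin domain-containing proteins, 8 occludins and JAMs, 4 JAM-like proteins, 10 tight junction plaque proteins, 14 adherens junction and desmosome proteins, 26 mucins and 2 sialomucins. Expression is given as FPKM, fragments scaled by transcript length and by library depth, which allows levels of different genes to be compared. A gene was tested if it reached 1 FPKM in at least 3 libraries, and 66 members did: 21 claudins, both claudin domain-containing proteins, all 8 occludins and JAMs, no JAM-like protein, all 10 plaque proteins, 11 adherens junction and desmosome proteins, 13 mucins and 1 sialomucin. Of the other 54 members, 44 stayed below 1 FPKM in every library and 10 reached it in 1 or 2 libraries. The highest value among those 54 was 4.47 FPKM, for mucin-15 (*muc15*) in Str-2. Total counts per library ranged from 48605412 to 73110636, with about 4 counts for each read pair, and the Str libraries had 48605412 to 60279138. Among Str and Rec libraries these totals were highest in Rec-2 and lowest in Str-3, as are the paper's mapped reads. The paper's valid reads are instead highest in Str-2 and lowest in Rec-3, an order that would follow from exchanged Str and Rec labels. The labels of the expression table were used throughout, and this disagreement between the sources was not resolved. The intestinal epithelial markers *cdh17* and *vil1* were detected in every library, at 109 FPKM or more and at 98.0 FPKM or more.

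Few members passed the test after transport, and more did between the end of transport and recovery. Calls rest on edgeR's quasi-likelihood F-test on the counts, with Benjamini-Hochberg adjustment over all 17244 genes tested and a threshold of 0.05. In Str vs. Ctrl, 1 of the 66 members fell and 0 rose, where 5.88% of all genes were called, 2.78% higher and 3.1% lower. At an unadjusted p below 0.05, 8 members were higher and 8 lower in that comparison, against 10.7% and 12.4% of all genes. DESeq2 called 6 members higher and 7 lower there, against 6.54% and 8.19% of all genes. Between recovery and the end of transport, Rec vs. Str, 1 member rose and 6 fell, where 9.15% of all genes were called, 5.03% higher and 4.11% lower. DESeq2 called 7 members higher and 14 lower there, against 10.4% and 8.13% of all genes. In Rec vs. Ctrl, edgeR called 0 members and 0% of all genes. There 0 members were higher and 5 lower at an unadjusted p below 0.05, against 3.4% and 2.41% of all genes, and DESeq2 called 0 higher and 1 lower, against 0.47% and 0.197%. The study's own thresholds, an unadjusted p below 0.05 and an absolute log2 fold change above 1, gave 6 members higher and 7 lower in Str vs. Ctrl, where they took 7.32% and 9.83% of all genes. In Rec vs. Str those thresholds gave 13 higher and 18 lower, against 11.3% and 8.83%, and in Rec vs. Ctrl 0 higher and 4 lower, against 2.49% and 1.52%. Rec vs. Str and Str vs. Ctrl share the Str libraries, so their values are set side by side and are not independent of each other.

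**Figure D1:**
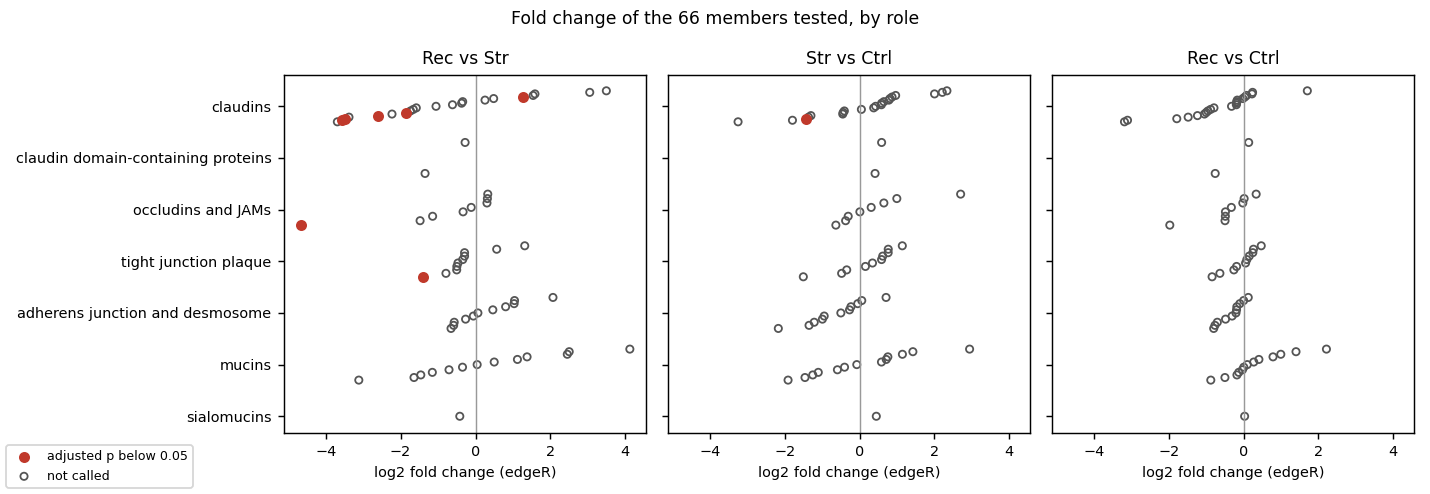
Each point is 1 of the 66 tested members, placed by its log2 fold change from edgeR (x axis) and by its role (y axis), with 1 panel per comparison; filled red points passed the test at an adjusted p below 0.05. Of the 7 filled points in Rec vs. Str 6 lie left of 0, Str vs. Ctrl holds 1 and Rec vs. Ctrl none.

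The median log2 fold change of the 66 members was -0.34 in Rec vs. Str, beside 0.03 over all genes tested. It was 0.11 in Str vs. Ctrl, beside -0.0020 over all genes, and -0.18 in Rec vs. Ctrl, beside 0.0040. Rec and Str did not overlap for 5 members that were higher in Rec and 19 that were lower, against 11.8% and 17.2% of all genes tested. For Str and Ctrl the counts were 12 higher and 13 lower in Str, against 14.4% and 16.1%. For Rec and Ctrl they were 0 higher and 12 lower in Rec, against 2.56% and 7.42%. In bulk tissue, fewer cells of a type and less RNA per cell cannot be told apart in any of these values.

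The claudins, 21 of the 66 members tested, held 5 of the 7 members called in Rec vs. Str. Of the 21, 1 rose and 4 fell, where 5.03% of all genes were called higher and 4.11% lower. The log2 fold change was negative for 14 of them, and the median was -1.06, beside 0.03 over all genes tested. Their summed level, over all 54 claudin loci, was 493, 575 and 894 FPKM in the Rec libraries, 1014, 1412 and 826 FPKM in the Str libraries and 992, 1081 and 987 FPKM in the Ctrl libraries. Rec-3 thus lay within the Str range, and Rec lay below Ctrl in all 3 fish. FPKM values ran low in Rec over all genes too. Their median log2 fold change in Rec vs. Ctrl was -0.15 in limma on log2(FPKM + 1), beside 0.0040 in edgeR on scaled counts. The claudin sums are not corrected for this, and the difference between Rec and Ctrl sums was not tested. The 6 most abundant loci made up 88.4% to 95.9% of the sum in every library. Claudin loci that are merged with another gene, described below, were counted whole, so part of the sum may come from those other genes.

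**Figure D2:**
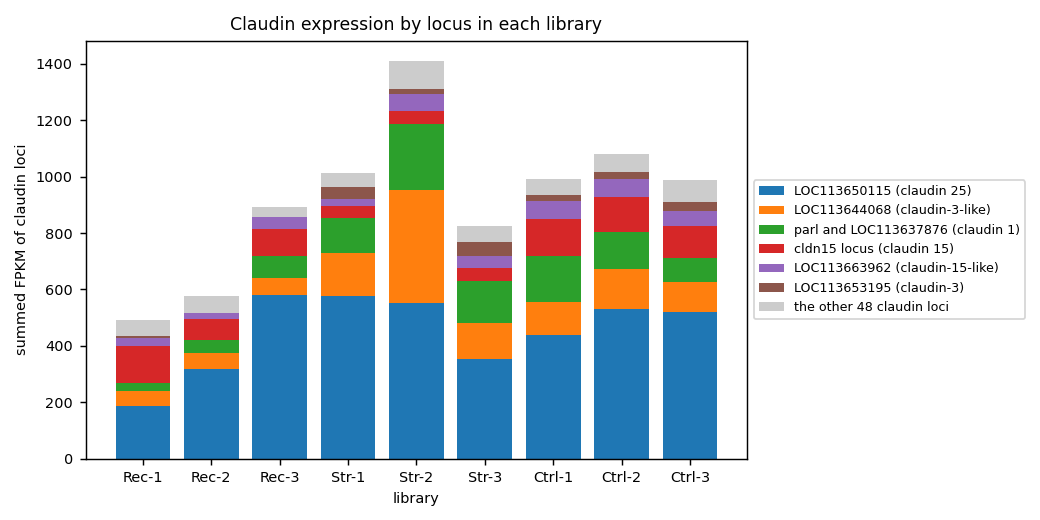
Stacked bars give the summed FPKM of the 54 claudin loci in each of the 9 libraries, split into the 6 most abundant loci and the other 48. Loci merged with another gene are counted whole. Claudin 25 is the largest block in all 9 libraries, and the *cldn15* block (red) is thinnest in the Str bars.

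Claudin 25 (LOC113650115) was the most abundant claudin in 9 of 9 libraries. It had 185, 316 and 580 FPKM in Rec, 576, 551 and 354 FPKM in Str and 438, 531 and 521 FPKM in Ctrl. The 3 groups overlapped, and the adjusted p from edgeR was 0.61 in Rec vs. Str and 0.96 in Str vs. Ctrl.

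*cldn15*, the claudin 15 locus, was the only member called in Str vs. Ctrl and the only one that rose in Rec vs. Str. Its level was 130, 72.2 and 97.2 FPKM in Rec, 42.7, 46.1 and 44.3 FPKM in Str, and 131, 124 and 114 FPKM in Ctrl. All 3 Str fish lay below all other fish, and the Rec range reached into the Ctrl range. In Str vs. Ctrl it fell by 1.44 ± 0.30 on the log2 scale (SE, n = 3 fish per group, adjusted p = 0.027, edgeR's quasi-likelihood test). It rose in Rec vs. Str, with a log2 fold change of 1.27 ± 0.30 and an adjusted p of 0.033 in edgeR, a call that 1 of the 6 fits without a library kept. The locus merges *cldn15* with LOC113635188, a gene of unknown function, and its reads cannot be assigned to either. The adjusted p passed 0.05 when any single library was left out of Str vs. Ctrl, reaching 0.11, while the log2 fold change stayed between -1.56 and -1.21. A further claudin-15-like locus, LOC113663962, had 29.3, 23.8 and 42.6 FPKM in Rec, 25.6, 60.8 and 41.8 FPKM in Str and 64.8, 64.0 and 50.8 FPKM in Ctrl. Rec lay below Ctrl there without overlap, and it was called in no comparison.

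LOC113644068, a claudin-3-like gene and the claudin with the next highest mean level after claudin 25, moved the other way in Rec vs. Str. It had 54.7, 59.7 and 61.5 FPKM in Rec, 151, 403 and 125 FPKM in Str, and 116, 139 and 107 FPKM in Ctrl. Every Rec fish was below every other fish, and Str-2 stood far above the rest. The fall in Rec vs. Str was -1.85 ± 0.46 on the log2 scale (SE, adjusted p = 0.039, edgeR). It was lost when any 1 of the 6 libraries was left out, with an adjusted p of up to 0.093, and the log2 fold change then ranged from -2.15 to -1.09. Set per library against this gene, the *cldn15* locus stood at 2.38, 1.21 and 1.58 times its FPKM in Rec, 0.282, 0.114 and 0.353 times in Str, and 1.12, 0.892 and 1.06 times in Ctrl. *cldn15* thus exceeded the claudin-3-like gene in every Rec fish and in 2 of 3 Ctrl fish, and was below it in every Str fish. This ratio was formed after the values were seen and was not tested.

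LOC113653224, a claudin-4-like gene, was the member whose call held best. It had 1.48, 0.690 and 0.513 FPKM in Rec, 5.66, 17.2 and 11.3 FPKM in Str, and 6.16, 7.42 and 14.5 FPKM in Ctrl. All Rec fish were below all Str and Ctrl fish, and Str and Ctrl overlapped. Its counts in Rec were only 97, 61 and 38, at about 4 per read pair, so the size of its fall is uncertain. The Rec vs. Str log2 fold change was -3.56 ± 0.60 (SE, adjusted p = 0.013, edgeR) and was called under all 15 alternatives run. Among these, the study's thresholds were applied to the same fit and could not lose such a call. In Rec vs. Ctrl the log2 fold change was -3.18 ± 0.59, with an adjusted p of 0.56 in edgeR and 0.00010 in DESeq2, the only member that DESeq2 called in that comparison.

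A further claudin-4-like gene, LOC113643632, had 1.76, 0.972 and 1.00 FPKM in Rec, 2.36, 14.97 and 6.79 FPKM in Str, and 3.95, 5.91 and 4.62 FPKM in Ctrl. Rec lay below both other groups, and the Str fish were spread widely around the Ctrl fish. It fell by 2.60 ± 0.63 on the log2 scale in Rec vs. Str (SE, adjusted p = 0.037, edgeR), and only 1 of the 6 fits that left out a library kept the call.

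Claudin-7 (*cldn7*), which in mammals sits along the lateral membrane and binds EpCAM, had 0.499, 0.128 and 0.701 FPKM in Rec, 3.63, 8.15 and 3.58 FPKM in Str, and 0.606, 1.64 and 1.91 FPKM in Ctrl. Every Str fish was above every other fish, and Rec and Ctrl overlapped. It fell by 3.49 ± 0.69 on the log2 scale in Rec vs. Str (SE, adjusted p = 0.020, edgeR), and the call held under 13 of 15 alternatives, failing without Str-2 and without Str-3. Counts of *cldn7* in Rec were only 54, 19 and 84, at about 4 per read pair, so the size of the fall is uncertain. In Str vs. Ctrl its log2 fold change was 2.00, with an adjusted p of 0.10 in edgeR. A claudin-7-A locus, LOC113663144, named here after its values were seen, was also highest in Str, with 0.469, 0.145 and 1.36 FPKM in Rec, 1.75, 4.66 and 2.92 FPKM in Str, and 0.390, 0.564 and 1.22 FPKM in Ctrl, and it was not called.

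**Figure D3:**
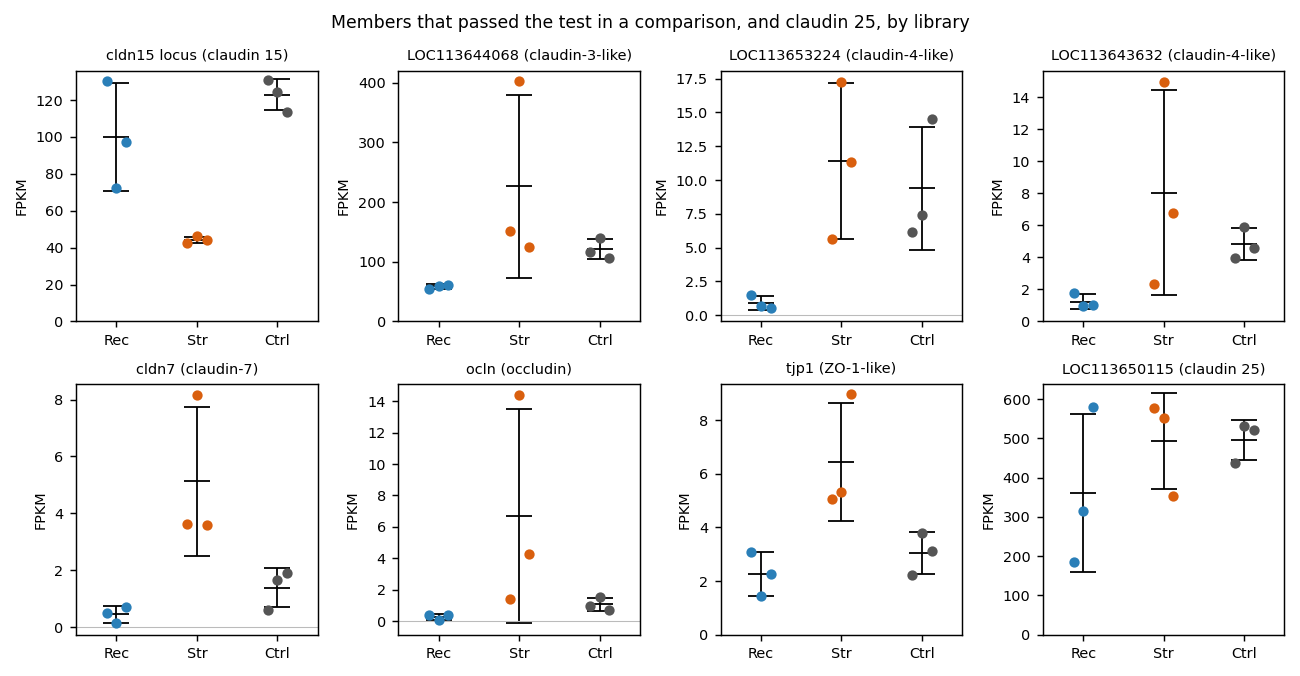
Points are FPKM per library (y axis, linear), with the mean and SD of 3 libraries as black bars, for the 7 members called in a comparison and for claudin 25, in the groups Rec, Str and Ctrl. *cldn15* is lowest in Str, the other 6 called members are highest on average in Str, and claudin 25 overlaps between all groups.

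The remaining abundant claudins were not called. The claudin 1 locus, merged with *parl*, a mitochondrial protease gene, had 28.5, 45.8 and 76.5 FPKM in Rec, 125, 231 and 151 FPKM in Str, and 163, 131 and 84.8 FPKM in Ctrl. Rec lay below both other groups, and the log2 fold change in Rec vs. Str was -1.66 ± 0.47 (SE, adjusted p = 0.056, edgeR). A claudin-3 locus, LOC113653195, had 8.26 FPKM in Rec-1 and was listed at 0 in Rec-2 and Rec-3, against 42.5, 19.5 and 51.5 FPKM in Str and 21.99, 24.6 and 31.3 FPKM in Ctrl. Its adjusted p in Rec vs. Str was 0.23, with 1 Rec fish apart from the other 2. Claudin-34 (LOC113642737) had 15.1, 26.8 and 8.04 FPKM in Rec, 8.17, 9.33 and 1.84 FPKM in Str, and 17.7, 14.2 and 17.2 FPKM in Ctrl. Str lay below Ctrl without overlap for that gene. *cldn12* ranged from 4.04 to 11.1 FPKM, and the locus that merges a claudin-34-like gene with a Shroom2-like gene from 3.83 to 12.4 FPKM, with all groups overlapping. Against Ctrl, 16 of the 21 claudins tested had a negative log2 fold change in Rec, beside 8565 of all 17244 genes. In FPKM, Rec lay below Ctrl without overlap for 8 claudins and above for 0. Over all genes the shares were 7.42% below and 2.56% above, so Rec lay low more often there too.

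**Figure D4:**
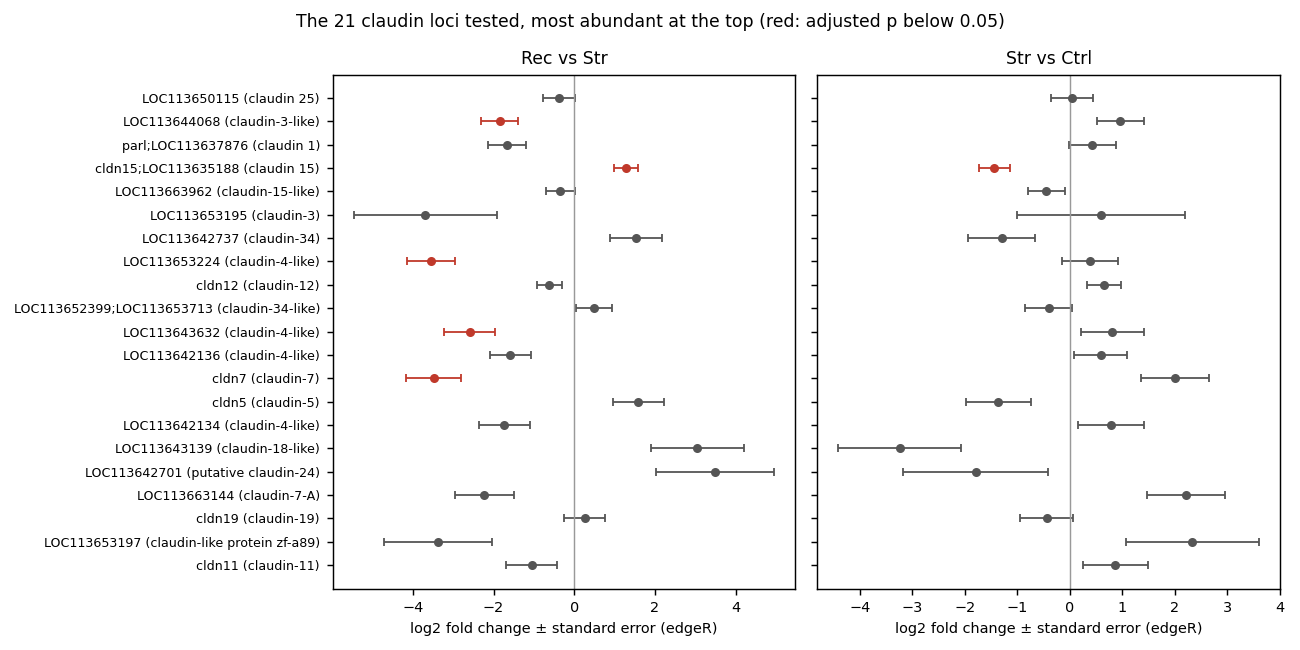
For the 21 tested claudin loci, ordered by mean FPKM with the highest at the top, points and bars give the log2 fold change and its standard error from edgeR in Rec vs. Str and in Str vs. Ctrl; red marks an adjusted p below 0.05. The 4 red points left of 0 in Rec vs. Str are LOC113644068, LOC113653224, LOC113643632 and *cldn7*, and the red point right of 0 is *cldn15*.

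Several of these claudins are neighbours on the genome. LOC113644068 and LOC113643632 were 3995 bases apart on 1 scaffold, in a run of 8 claudin loci that spanned 80.0 kb and of which only these 2 passed the filter. LOC113653224 and the claudin-3 locus LOC113653195 were 11621 bases apart in a different run of 8 claudin loci, spanning 32.3 kb, of which 3 passed. All 4 of these genes, named for their call or their level, had Rec below Str in every fish, as did 17.2% of all genes tested. For LOC113653197, the remaining tested locus of the run with LOC113653224, Rec and Str overlapped. It had 0.244, 0.155 and 0.323 FPKM in Rec and 0.0948, 5.03 and 2.98 FPKM in Str. Runs were defined as member loci of any role on a scaffold with gaps of up to 100 kb, and these runs held only claudins. Tandem claudin copies can be near-identical, and how the counting shared reads between them is not stated, so it is uncertain which copy a read within a run came from.

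Among the other transmembrane proteins, occludin (*ocln*), which stabilises the junction strands, fell in Rec vs. Str. It had 0.374, 0.0374 and 0.358 FPKM in Rec, 1.40, 14.4 and 4.24 FPKM in Str, and 0.980, 1.53 and 0.715 FPKM in Ctrl. Rec lay below both other groups, and Str-2 was the highest of all fish. The log2 fold change in Rec vs. Str was -4.67 ± 1.03 (SE, adjusted p = 0.027, edgeR), and the call was lost without Str-2, Str-3, Rec-2 or Rec-3. Counts of *ocln* in Rec were only 57, 8 and 61, at about 4 per read pair, so the size of the fall is uncertain. The 3 occludin-like genes had higher means over the 9 libraries than *ocln*, although *ocln* exceeded 2 of them in Str-2. Of the other 7 transmembrane proteins, 0 passed in any comparison. LOC113634258, the occludin-like gene with the highest mean, had 11.01, 3.90 and 19.5 FPKM in Rec, 5.91, 20.8 and 11.3 FPKM in Str, and 4.64, 35.4 and 14.2 FPKM in Ctrl. JAM-A (*f11r*), an immunoglobulin-type adhesion protein, had 12.1, 37.1 and 38.2 FPKM in Rec, 55.7, 96.4 and 58.7 FPKM in Str, and 47.3, 34.5 and 57.0 FPKM in Ctrl. Rec lay below Str without overlap for *f11r*, with an adjusted p of 0.16 in edgeR.

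Of the 10 plaque proteins, 1 fell in Rec vs. Str, where 4.11% of all genes were called lower. *tjp1*, a ZO-1-like scaffold that links claudins and occludin to actin, had 3.10, 1.45 and 2.27 FPKM in Rec, 5.05, 5.31 and 8.97 FPKM in Str, and 2.22, 3.81 and 3.12 FPKM in Ctrl. Every Str fish was above every other fish. Its level fell by 1.40 ± 0.32 on the log2 scale in Rec vs. Str (SE, adjusted p = 0.030, edgeR), and in Str vs. Ctrl the log2 fold change was 1.14 ± 0.32 with an adjusted p of 0.067. The call in Rec vs. Str was lost in 5 of the 6 fits that left out a library, with an adjusted p of up to 0.11. The 2 most abundant plaque genes, a ZO-3-like gene (LOC113657834) at 12.6 to 28.1 FPKM and a ZO-1-like gene (LOC113647378) at 10.98 to 41.01 FPKM, overlapped between groups and were not called.

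None of the 11 adherens junction and desmosome genes passed in any comparison. In Str vs. Ctrl 9 of them had a negative log2 fold change. At an unadjusted p below 0.05 in edgeR, 4 were lower, against 12.4% of all genes. For 5 of the 11, Str lay below Ctrl without overlap, against 16.1% of all genes. The desmoplakin-like gene LOC113662379, which ties desmosomes to keratin filaments, had 49.7, 55.5 and 7.85 FPKM in Rec, 14.9, 8.76 and 6.93 FPKM in Str, and 47.0, 58.2 and 36.2 FPKM in Ctrl. Rec-3 lay among the Str fish, and the adjusted p from edgeR was 0.092 in Rec vs. Str and 0.098 in Str vs. Ctrl. A further desmoplakin-like gene, LOC113640174, named here after its values were seen, had a mean of 26.3 FPKM, beside 31.7 FPKM for LOC113662379. It did not show this pattern. Its log2 fold change was 0.058 in Str vs. Ctrl and -0.058 in Rec vs. Str (adjusted p = 0.95 and 0.94, edgeR). The E-cadherin-type locus, which merges a B-cadherin-like and a cadherin-1-like gene, had 22.5, 12.5 and 18.3 FPKM in Rec, 20.0, 35.7 and 28.7 FPKM in Str, and 25.2, 45.5 and 33.6 FPKM in Ctrl, with Rec below Ctrl without overlap.

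No mucin passed the test in any comparison, of 13 tested. At an unadjusted p below 0.05 in edgeR, 4 were higher and 5 lower in Rec vs. Str, against 14% and 12.4% of all genes, and in Str vs. Ctrl 3 higher and 1 lower, against 10.7% and 12.4%. The mucin-2-like gene LOC113653937, named for the main secreted gel-forming mucin of the mammalian intestine, was the most abundant on average. It had 85.8, 77.9 and 131 FPKM in Rec, 84.0, 91.8 and 45.3 FPKM in Str, and 112, 105 and 80.9 FPKM in Ctrl, with all groups overlapping. The summed level of the 26 mucin loci was 294, 313 and 191 FPKM in Rec, 196, 233 and 203 FPKM in Str, and 248, 188 and 179 FPKM in Ctrl.

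The mucin-17-like gene LOC113657406, named for a membrane-anchored mucin, varied widely between fish. It had 64.3, 161 and 4.84 FPKM in Rec, 12.9, 0.951 and 1.74 FPKM in Str, and 38.9, 4.88 and 11.004 FPKM in Ctrl. Rec-3 lay within the Str range, and the adjusted p in Rec vs. Str was 0.11 with a log2 fold change of 4.12 ± 1.48 in edgeR. Its locus lies inside that of a further mucin-17-like locus on the same strand, which had 66.8, 39.1 and 18.1 FPKM in Rec, 14.7, 19.2 and 18.6 FPKM in Str, and 25.8, 22.9 and 33.0 FPKM in Ctrl, so reads of both cannot be told apart with certainty. The integumentary mucin C.1-like gene LOC113651956 and the mucin-5AC-like gene LOC113657241, named after their values were seen, had Rec below Str in every fish. Over the 13 mucins tested, Rec lay below Str without overlap for 3 and above for 1, against 17.2% and 11.8% of all genes. The 1 above was the mucin-5AC-like gene LOC113644030, with 4.20, 3.21 and 5.08 FPKM in Rec and 2.88, 1.95 and 1.29 FPKM in Str. LOC113657241 had 33.2, 7.25 and 8.40 FPKM in Rec, 45.3, 47.1 and 71.2 FPKM in Str, and 38.8, 21.8 and 11.1 FPKM in Ctrl, with an adjusted p of 0.16 in Rec vs. Str. The sialomucin *cd164*, a membrane glycoprotein, ranged from 64.7 to 137 FPKM, and the 2 claudin domain-containing genes summed to 8.14 to 13.6 FPKM in Rec, 14.3 to 15.6 FPKM in Str and 10.6 to 12.2 FPKM in Ctrl. None of these 3 genes was called.

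**Figure D5:**
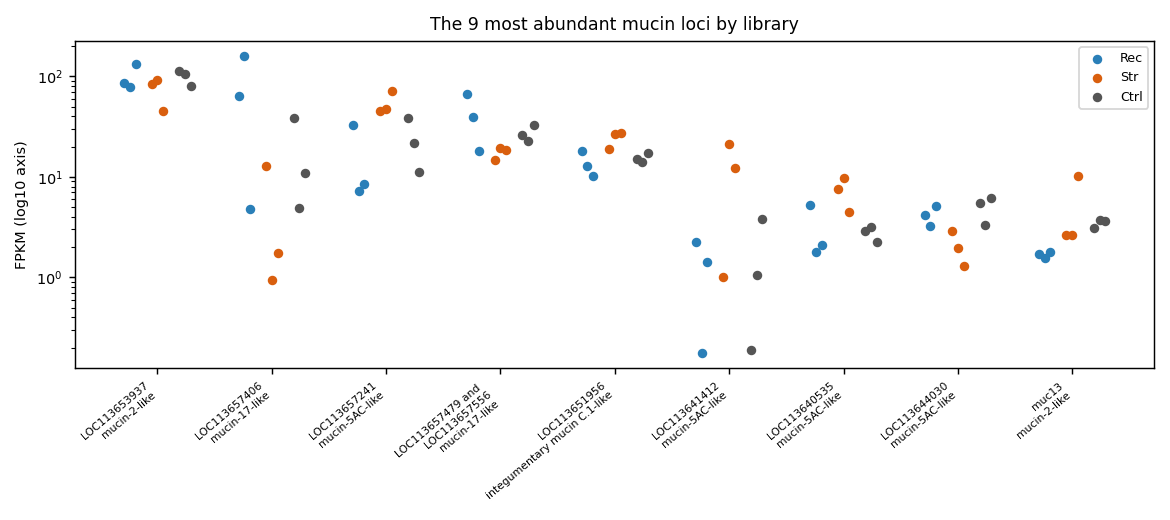
FPKM per library (log10 axis) of the 9 most abundant mucin loci, with Rec, Str and Ctrl libraries side by side. The groups overlap for mucin-2-like, and the mucin-17-like gene LOC113657406 spans 4.84 to 161 FPKM among Rec fish.

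Junction partners gave a similar count of calls, and a larger tight junction list, given last, did not. Of 53 tested junction partners, chosen by product (catenins, nectins, polarity proteins and others, with the members left out), 1 fell and 0 rose in Str vs. Ctrl. In Rec vs. Str there were 6 falls and 1 rise. Called partners were 1.89% of those tested in Str vs. Ctrl and 13.2% in Rec vs. Str, against 5.88% and 9.15% of all genes. The EpCAM-like gene LOC113645006, an epithelial adhesion protein, had 18.1, 8.23 and 25.3 FPKM in Rec, 97.0, 127 and 98.6 FPKM in Str, and 44.2, 44.5 and 43.9 FPKM in Ctrl. The 3 groups did not overlap, and in Rec vs. Str it fell by 2.59 ± 0.35 on the log2 scale (SE, adjusted p = 0.0082, edgeR). The scaffold gene *mpdz* fell in Rec vs. Str as well, with 2.46, 1.31 and 1.25 FPKM in Rec, 4.92, 4.03 and 5.28 FPKM in Str, and 2.35, 3.35 and 2.51 FPKM in Ctrl (adjusted p = 0.029, edgeR). *nectin1*, *ctnna2*, *pard6a* and a PAR6-gamma-like gene made up the other falls. LOC113647394, a further PAR6-gamma gene, fell in Str vs. Ctrl and rose in Rec vs. Str. A further list held the 237 tested genes whose KEGG text names the tight junction, with the members but not the partners left out. Over that list Str vs. Ctrl had 6 rises and 8 falls, 5.91% called against 5.88% of all genes. Rec vs. Str had 7 rises and 10 falls, 7.17% called against 9.15% of all genes, and the list's median log2 fold change was 0.0011.

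Among 29 tested genes of mucus secretion and mucin glycosylation, Str vs. Ctrl had 1 rise and 3 falls, and Rec vs. Str had 2 rises and 1 fall. The called genes were 13.8% of the list in Str vs. Ctrl and 10.3% in Rec vs. Str, against 5.88% and 9.15% of all genes. The enzymes that start O-linked sugar chains on mucins accounted for most of these. *galnt12* had 11.8, 8.67 and 19.7 FPKM in Rec, 4.51, 5.44 and 3.28 FPKM in Str, and 10.3, 29.7 and 23.2 FPKM in Ctrl. All Str fish lay below all others, and it fell in Str vs. Ctrl (adjusted p = 0.017) and rose in Rec vs. Str (adjusted p = 0.030, edgeR). The *galnt4*-like gene LOC113661422 moved in the same way, with 21.4, 26.7 and 31.2 FPKM in Rec, 13.9, 6.92 and 6.60 FPKM in Str, and 29.98, 30.5 and 39.3 FPKM in Ctrl. *galnt18* moved the other way, with 2.59, 3.26 and 3.74 FPKM in Rec, 8.83, 6.98 and 10.8 FPKM in Str, and 1.82, 2.30 and 2.98 FPKM in Ctrl.

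Markers of other cells moved in part with the groups, and their part in the results above was not tested. The 9 leukocyte markers summed to 54.4 to 117 FPKM in Rec, 36.2 to 49.5 FPKM in Str and 71.7 to 175 FPKM in Ctrl. Of those 9, 4 fell in Str vs. Ctrl and 5 rose in Rec vs. Str, against 3.1% and 5.03% of all genes. The 13 epithelial markers summed to 1810 to 3307 FPKM in Rec, 1504 to 1817 FPKM in Str and 1887 to 3213 FPKM in Ctrl, and in Rec vs. Str *cdh17* rose while the EpCAM-like gene and a keratin 18-like gene fell. The 8 smooth muscle markers summed to 9798 to 17501 FPKM in Rec, 3993 to 23037 FPKM in Str and 5464 to 14431 FPKM in Ctrl. By library, smooth muscle sums in Rec were 12985, 17501 and 9798 FPKM, beside claudin sums of 493, 575 and 894 FPKM. Those of Str were 23037, 3993 and 12451 FPKM for muscle, beside 1014, 1412 and 826 FPKM for claudins. Ctrl had 14431, 6522 and 5464 FPKM for muscle, beside 992, 1081 and 987 FPKM for claudins. Whether the muscle and claudin sums are linked was not tested. The 5 goblet cell markers summed to 724 FPKM in Rec-3, of which *agr2* made up 709 FPKM, and to 56.4 to 141 FPKM in every other library. The 6 liver markers summed to 670 to 4525 FPKM in Rec, 11.5 to 33.0 FPKM in Str and 5.02 to 110 FPKM in Ctrl, nearly all of it apolipoprotein A-II in Rec. Of the 4 liver markers tested, 1 had a positive log2 fold change in Rec vs. Str and 3 a negative one. In Rec vs. Ctrl 3 were positive and 1 negative. The 7 endothelial markers summed to 23.4 to 51.2 FPKM and the 24 exocrine pancreas markers to 11.5 to 29.1 FPKM, apart from 304 FPKM of pancreas markers in Ctrl-3.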

How the data were processed

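The authors sequenced intestinal RNA of 9 hybrid yellow catfish, 3 per group, on an Illumina NovaSeq. Reads trimmed with Cutadapt 1.9 were aligned to the genome of *Tachysurus fulvidraco*, one of the 2 parent species (build not given in the sources used here). Submitters' notes name HISAT and StringTie. FPKM per gene was computed and deposited by the authors. The expected counts they deposited are whole numbers, about 4 per read pair, made in a way that is not stated.

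Members were matched by product name, and the members and gene lists were chosen with earlier results of these data known. Genes reaching 1 FPKM in 3 or more libraries entered edgeR 4.0.16 (R 4.3.3; TMM scaling, quasi-likelihood F-test, two-sided, all 9 libraries, group only), with Benjamini-Hochberg adjustment over 17244 genes. Standard errors were obtained from the fold change and F. The fit was also run on simulated counts, with changes planted only in Str and only in genes with higher counts. That run scored Str vs. Ctrl alone. It does not show how well changes in genes with few counts are found. Named were all called members, claudins with a mean of at least 5 FPKM, the 2 most abundant members of each other role, and at most 6 called genes of each other list. Alternatives used DESeq2 1.42.0, limma 3.58.1 on log2(FPKM + 1) and log2(FPKM + 0.1), DESeq2 size factors, counts divided by 4, no filter, the 2 compared groups only, a replicate block, the study's thresholds and leaving out libraries. Sequences were not used here.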

Additional observations from a re-analysis of the deposited data

How the results depend on the processing

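For the 22 pairs of named member and comparison with an unadjusted p below 0.05, no log2 fold change changed sign under the alternatives. Of 330 values, 260 stayed called or stayed uncalled, 45 lost the call and 25 gained it. Only pairs called in the main fit could lose a call, 1 in Str vs. Ctrl and 7 in Rec vs. Str. Each of these kept its call under 7 to 15 of 15 alternatives. Among the 330, values under the study's thresholds reuse the main fit, so their log2 fold changes could not differ. Of the other 44 pairs, which were not called, 16 had the other sign under at least 1 alternative (39 of 616 values, without the study's thresholds). Counts of called members depended more on the tool. For Str vs. Ctrl, DESeq2 and the study's thresholds each gave 6 members higher and 7 lower, limma with either pseudocount 2 lower, and a fit of only the 2 groups compared 2 lower. For Rec vs. Str, DESeq2 gave 7 higher and 14 lower, the study's thresholds 13 and 18, the 2-group fit 0 and 2, and limma with a pseudocount of 0.1 gave 2 higher. Members lower in Rec vs. Ctrl numbered 1 with DESeq2 and 4 with the study's thresholds. Limma also moved the median of all genes to -0.15 in Rec vs. Ctrl with a pseudocount of 1, to -0.19 with 0.1, and to -0.12 in Rec vs. Str with 0.1. Among junction partners in Str vs. Ctrl, DESeq2 gave 3 higher and 2 lower, the study's thresholds 4 higher, the 2-group fit 1 higher, and both limma fits and the fit with no filter 0 lower. In Rec vs. Str partners, higher calls were 2 with DESeq2 and with the study's thresholds and 0 with limma at a pseudocount of 1, and lower calls were 3 with that limma fit and 2 with the 2-group fit. The study's thresholds gave 2 partners lower in Rec vs. Ctrl. Mucus genes under those thresholds were 5 lower in Str vs. Ctrl, 5 higher against 3 lower in Rec vs. Str, and 1 each way in Rec vs. Ctrl. In Rec vs. Str, mucus genes were 3 lower with DESeq2, 1 higher with both limma fits, and 1 higher with 0 lower in the 2-group fit. All genes moved too: of 17244, the 2-group fit called 666 higher and 697 lower in Str vs. Ctrl and 380 against 297 in Rec vs. Str, and DESeq2 called 1128 against 1412 and 1791 against 1402. The cause of these differences was not tested.

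Leaving out 1 library at a time gave 0 to 1 members lower in Str vs. Ctrl, and in Rec vs. Str 0 to 4 higher with 1 to 8 lower, and 0 to 1 lower in Rec vs. Ctrl. The Rec vs. Str falls numbered 1 without Str-2 or Str-3, 2 without Rec-2, 3 without Rec-3, 4 without Str-1 and 8 without Rec-1. For partners the ranges were 0 to 1 in each direction in Str vs. Ctrl, and for Rec vs. Str 0 to 2 higher with 1 to 4 lower. For mucus genes they were 0 to 1 in each direction in Str vs. Ctrl, and for Rec vs. Str 0 to 2 higher with 0 to 1 lower.

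The replicate numbers did not pair the fish: same-numbered libraries of 2 groups had correlations of their deviations between -0.26 and 0.19. With the replicate number as a block, 0 members were lower in Str vs. Ctrl. For Rec vs. Str the block left 0 members higher and 2 lower, 3 partners lower and 1 mucus gene higher. Over all genes the block gave 289 rises against 334 falls in Str vs. Ctrl and 518 against 375 in Rec vs. Str. The fit with no filter tested all 120 members and called as many as the filtered fit in each direction.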
